A study of Mus musculus with 10 samples.

Results

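The genes described here are 7 genes of Schwann cells and myelin, Mbp, Mag, Prx, Pmp2, Pmp22, Sox10 and Cnp, listed by name and matched by symbol to the identifiers in the count files. All 7 were found among the 46983 genes counted, and 6 of them held enough reads to be tested. The libraries came from the right thoracic mammary fat pads of virgin female C57BL/6 mice at postnatal day 130, which was 4 weeks after the folic acid (FA) diets had ended and all mice had returned to the same maintenance diet. One group of 5 libraries came from mice fed the control diet (CFA, 1 mg FA/kg) and the other group of 5 from mice fed the high FA diet (HFA, 5 mg FA/kg). The libraries are called CFA-1 to CFA-5 and HFA-1 to HFA-5, where the number is only a name. The labels do not say which mice shared a cage, and the p-values measure the spread between these 10 libraries. The study asked whether differences in mammary transcripts could be detected after the period of different FA intakes, and the values here give that comparison for peripheral glial genes.

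Schwann cells are the glia of peripheral nerves, and they reach the mammary gland with the nerves that supply its skin, vessels and ducts. Myelinating Schwann cells wrap large axons in compact myelin, whose proteins include Mbp, Pmp22 and Pmp2, while Mag sits in the membrane next to the axon, Prx organises the outer Schwann cell membrane, and Cnp is an enzyme of the cytoplasm-filled parts of the sheath. Sox10 is the transcription factor that specifies Schwann cells and, with Egr2, switches on myelin genes. Several of these genes are not exclusive to glia: Sox10 is also made by mammary basal epithelium, and Pmp22 and Cnp are made by many cell types.

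Reads counted on genes ranged from 7672199 to 14829291 per library. The adipocyte list, led by Fabp4 and Lpl, summed to 12600 to 18200 CPM in CFA (CPM is the read count scaled to the library size after TMM normalization) and 11940 to 21670 CPM in HFA, and the epithelial list, led by Krt19 and Krt18, to 665 to 2719 and 413 to 1935 CPM, so that the defining genes of the labelled tissue were present in every library. The libraries differed in other cell types. The summed CPM of 10 B and T cell genes was 8.89 to 11.3 in CFA-1, CFA-3 and CFA-4 and 7.86 to 10.6 in HFA-1 to HFA-4, but 385 in CFA-2, 993 in CFA-5 and 2817 in HFA-5. The summed CPM of 8 skeletal muscle genes, led by Myh4 and Acta1, ran from 7529 to 45800 in CFA and from 45030 to 59900 in HFA-1 to HFA-4, and it was 775 in HFA-5. HFA-5 therefore stood apart in both lists, and values without it are given beside the results that it moves most. In such bulk tissue, fewer cells of a type and less RNA per cell cannot be told apart.

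The identity of the glial signal was read from genes that are not among the 7. Drp2, the partner of Prx in the outer Schwann cell membrane, had a mean of 15.9 CPM and was counted in every library. Oligodendrocytes, the myelinating cells of the central nervous system, share Mbp, Mag, Cnp and Sox10 with Schwann cells. Of 9 oligodendrocyte genes, Opalin had 0 reads in all libraries, Mog had 8 reads and Mobp 3 reads in all, and the highest count of any untested gene of that list in a library was 9 (Olig1). Gpr17 was the exception, at a mean of 1.94 CPM. The sum of the list was 1.32 to 2.54 CPM in CFA and 1.02 to 4.23 CPM in HFA. Of 5 melanocyte genes, which mark another type of cell that uses Sox10, 2 were tested, Dct at a mean of 1.67 CPM and Pmel at 1.07 CPM, and the list summed to 2.67 to 4.23 CPM in CFA and 2.10 to 4.14 CPM in HFA.

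Positions are given in GRCm38 (GENCODE M21). Mag is at chr7:30899176-30914873 on the minus strand and Prx at chr7:27499324-27520214 on the plus strand. Pmp22 is at chr11:63128982-63159547 and Cnp at chr11:100574904-100591729, both on the plus strand. Sox10 is at chr15:79154908-79165240 and Pmp2 at chr3:10179851-10183929, both on the minus strand. Gm15541 shares 300 bp of exon with Prx, and Dnajc7 shares 154 bp with Cnp, both from the opposite strand. The library kit does not mark strand, so reads in those shared stretches cannot be assigned to one gene.

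Upstream sequence from the RefSeq promoter table (GRCm38.p6) is shown for 4 members, namely Prx, Mag, Pmp22 and Cnp. It is given to show how their upstream regions differ in 3 short motifs. The table holds 9 windows of these genes, of which 1 per gene is printed. Each run is the 250 bases before the first transcribed base of 1 RefSeq start, 5′ to 3′ on the strand of the gene. The GENCODE gene models of Cnp and Mag begin inside these windows, so the last bases printed lie within those models. Capitals mark ACAAAG (a SOX-type motif), GCGTGGG (an EGR-type motif) or GGAATG (a TEAD-type motif) on either strand, none of which overlapped another here. The windows are chr7:27499074-27499323 (plus strand) for Prx, chr7:30914864-30915113 (minus strand) for Mag, chr11:63128732-63128981 (plus strand) for the first Pmp22 promoter and chr11:100574689-100574938 (plus strand) for Cnp.
Prx: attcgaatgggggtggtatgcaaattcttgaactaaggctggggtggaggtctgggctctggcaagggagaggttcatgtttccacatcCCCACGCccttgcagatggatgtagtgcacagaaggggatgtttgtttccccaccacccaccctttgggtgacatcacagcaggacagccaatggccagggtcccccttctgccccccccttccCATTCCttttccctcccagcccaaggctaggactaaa
Mag: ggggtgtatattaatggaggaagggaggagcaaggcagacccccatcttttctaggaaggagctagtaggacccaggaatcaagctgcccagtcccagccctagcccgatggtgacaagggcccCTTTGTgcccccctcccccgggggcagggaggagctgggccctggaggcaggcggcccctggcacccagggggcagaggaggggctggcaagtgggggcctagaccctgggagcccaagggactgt
Pmp22: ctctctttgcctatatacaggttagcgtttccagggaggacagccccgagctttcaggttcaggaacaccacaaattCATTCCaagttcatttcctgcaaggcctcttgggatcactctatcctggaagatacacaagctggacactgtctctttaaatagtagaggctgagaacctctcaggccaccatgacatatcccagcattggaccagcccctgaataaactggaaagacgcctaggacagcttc
Cnp: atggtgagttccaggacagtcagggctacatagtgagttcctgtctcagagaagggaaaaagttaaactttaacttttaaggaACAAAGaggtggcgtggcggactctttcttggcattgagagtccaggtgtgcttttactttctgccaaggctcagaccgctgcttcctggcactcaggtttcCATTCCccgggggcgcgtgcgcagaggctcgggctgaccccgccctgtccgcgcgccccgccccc
The SOX-type motif began at position −126 from the start in Mag and at −167 in Cnp, and it was present in 16.5% of all 32851 windows of the table. The EGR-type motif was found in Prx, at −161, and in 4.3% of all windows. The TEAD-type motif was found in Prx at −37, in Pmp22 at −173 and in Cnp at −65, and in 12.6% of all windows. Of the windows not printed, a Mag window at chr7:30914322-30914571 held the TEAD-type motif at −227, a Mag window at chr7:30914923-30915172 held the same SOX-type match, and the remaining Pmp22 windows held none of the 3 motifs. These are matches of letters, and binding was not measured.

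Per kb of exon, the level of Pmp22 came first, at 67.4 ± 18.9 CPM per kb (SD, n = 10). Sox10 followed at 19.7 ± 10.9, Cnp at 15.1 ± 11.8 and Mbp at 10.2 ± 3.61 CPM per kb, and these neighbours did not differ beyond their spread. Prx was at 3.28 ± 2.07 and Mag at 0.465 ± 0.246 CPM per kb. The order was not the same in every library. Cnp reached 46.8 CPM per kb in HFA-5, above the 22.6 of Pmp22 there. Pmp2, the fatty acid binding protein of peripheral myelin, was close to absent from the counts, with 1 read in CFA-4, 1 read in HFA-4 and 0 in the other libraries, where a count of 0 allows up to 3 reads for counting error only. A gene model on the same strand, Gm37389, covers 86.9% of the Pmp2 exon length, and reads that fit both gene models could be counted on neither. Gm37389 had 0 reads as well. Low counts of Pmp2 therefore do not show that the transcript was missing.

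Mbp and Mag were higher in every HFA library than in every CFA library. Mbp, the basic protein that compacts the inner faces of the myelin membrane, (chr18:82475146-82585637, plus strand) was at 57.8, 61.3, 60.5, 63.1 and 76.3 CPM in CFA-1 to CFA-5. In HFA-1 to HFA-5 it was at 91.9, 158, 97.2, 89.8 and 107 CPM. The groups did not overlap, and HFA-2 lay above the other HFA libraries. Group means came to 63.8 ± 7.27 CPM for CFA and 109 ± 28.1 CPM for HFA (SD, n = 5 each), and the log2 fold change was 0.77 ± 0.17 (SE), or 1.70-fold. In edgeR's quasi-likelihood test the unadjusted p was 0.000896 and the p adjusted over 15610 genes was 0.577, so that the difference did not pass.

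Mag, the adhesion molecule on the axon side of the sheath, was counted with few reads. It had 14, 13, 9, 14 and 18 reads in CFA-1 to CFA-5, or 0.961, 1.43, 0.585, 1.01 and 1.34 CPM. It had 18, 33, 26, 31 and 35 reads in HFA-1 to HFA-5, or 1.99, 2.85, 3.69, 2.83 and 2.23 CPM. Every HFA library was again above every CFA library, with means of 1.07 ± 0.336 and 2.72 ± 0.660 CPM. Its log2 fold change was 1.35 ± 0.29 (SE), or 2.55-fold, with an unadjusted p of 0.000726 and an adjusted p of 0.577 in the same test. Counting alone gives Mag a coefficient of variation of about 21.8%, against 52.9% over all 10 libraries, a spread that includes the difference between the diets.

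**Figure D1:**
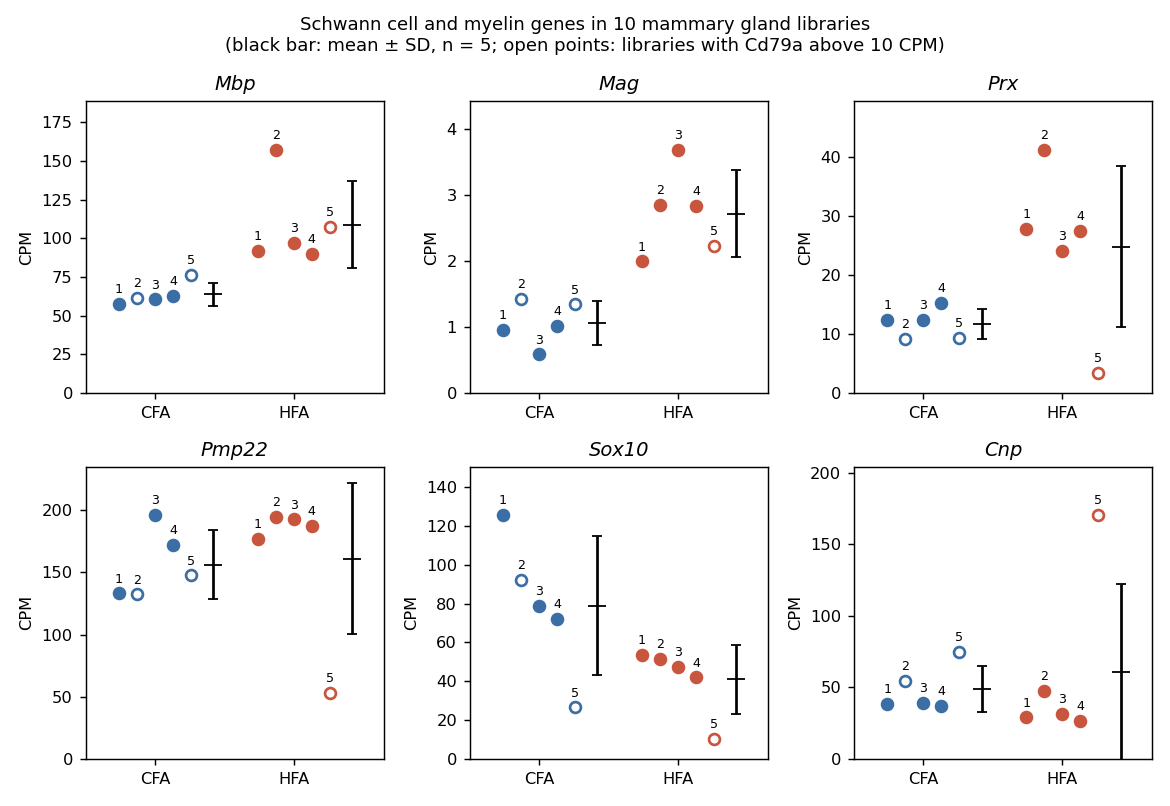
CPM of 6 members in each library on a linear axis from 0, with 5 CFA libraries in blue and 5 HFA libraries in red, the number of the library above each point, and the mean ± SD in black (the bar of Cnp in HFA reaches below 0 and is cut there). Mbp and Mag have no HFA point at or below a CFA point, whereas HFA-5 is the lowest point for Prx, Pmp22 and Sox10 and the highest for Cnp.

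Of all genes tested, 0.75% had every HFA library above every CFA library, and 3.87% had an unadjusted p below 0.05 with the higher level in HFA. Of the 6 tested members, 2 met both, Mbp and Mag. Past an adjusted p of 0.05 there were 0 of 15610 genes, or 0.0%, by this test, and 1149 had an unadjusted p below 0.05. DESeq2 gave Mag an adjusted p of 0.0117 and Mbp one of 0.0229, and the likelihood ratio test of edgeR gave 0.0249 and 0.0865, so that the call depended on the test. Over all alternatives the adjusted p ran from 0.0117 to 0.999 for Mag and from 0.0229 to 0.999 for Mbp. Both genes were higher in HFA under all 25 alternatives computed, at log2 fold changes of 0.60 to 0.85 for Mbp and 1.14 to 1.72 for Mag.

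Prx, the scaffold protein that forms the appositions along the outside of the myelin sheath, had 2 kinds of HFA library. It was at 12.4, 9.21, 12.4, 15.3 and 9.33 CPM in CFA-1 to CFA-5. It was at 27.8, 41.2, 24.1 and 27.5 CPM in HFA-1 to HFA-4 but at 3.37 CPM in HFA-5. HFA-1 to HFA-4 lay above all CFA libraries and HFA-5 below all of them. The log2 fold change was 1.08 ± 0.49 with all libraries (unadjusted p = 0.0501, adjusted p = 0.670, edgeR) and 1.32 ± 0.20 without HFA-5 (adjusted p = 0.05002). Drp2 followed it closely, with a ratio of Prx to Drp2 between 0.919 and 1.74 in all libraries, although Drp2 itself ran from 2.04 to 39.2 CPM.

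Mbp and Mag did not follow Drp2 in HFA-5. The ratio of Mbp to Drp2 was 4.27 to 12.3 in CFA, 3.56 to 5.68 in HFA-1 to HFA-4 and 52.7 in HFA-5. That of Mag to Drp2 was 0.046 to 0.217, 0.0727 to 0.179 and 1.09. Within CFA both ratios were highest in CFA-5. Drp2 was at 7.35 CPM in CFA-2 and 6.19 CPM in CFA-5, the CFA libraries rich in B and T cell reads. It was at 12.4 to 13.5 CPM in CFA-1, CFA-3 and CFA-4. In HFA-5 the B and T cell sum was 2817 CPM and the muscle sum 775 CPM, and their part in these ratios was not tested. Nor was it tested which cell types gave the reads of Mbp and Mag.

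Pmp22, a membrane protein of compact myelin that fibroblasts and other cells also make, was at 133, 132, 196, 173 and 148 CPM in CFA-1 to CFA-5. It was at 177, 195, 193, 188 and 53.2 CPM in HFA-1 to HFA-5. The groups overlapped throughout, and HFA-5 was the lowest library of all. Its log2 fold change was 0.04 ± 0.31 (adjusted p = 0.978, edgeR quasi-likelihood test), with a sign that turned under several settings, for example to −0.21 with B and T cell genes as a covariate.

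Sox10 was lower in HFA by its mean. It was at 125, 92.1, 78.9, 72.0 and 26.5 CPM in CFA-1 to CFA-5. It was at 53.7, 51.4, 47.5, 41.97 and 10.4 CPM in HFA-1 to HFA-5. The groups overlapped only through CFA-5, which lay below HFA-1 to HFA-4. The log2 fold change was −0.95 ± 0.46, with an unadjusted p of 0.0657 and an adjusted p of 0.678 (edgeR). This direction was opposite to that of Mbp, Mag and Prx.

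The level of Sox10 moved with basal epithelial genes. Of all genes with a mean of at least 1 CPM, the 5 most like Sox10 over the 10 libraries were Trp63 (Pearson r = 0.99), Krt14, Sorbs2, Fhl2 and Cplx2, and Trp63 and Krt14 are defining genes of the basal layer. The ratio of Sox10 to Trp63 stayed between 1.34 and 1.68 in all libraries, with means of 1.54 ± 0.13 in CFA and 1.48 ± 0.084 in HFA, while Sox10 itself varied 12.02-fold. Of the 12 epithelial genes, 11 were lower in HFA, at a median of −0.85 on the log2 scale (2 at an unadjusted p below 0.05), against 0.064 over all genes tested. With the mean of the epithelial genes as a covariate, the log2 fold change of Sox10 was −0.24 ± 0.14 (unadjusted p = 0.120, edgeR). That list holds Trp63 and Krt14, and 11 of its 12 genes had r above 0.8 with Sox10. The smaller value therefore followed from the choice of covariate, and which cells gave the Sox10 reads was not tested. Points in these comparisons share library and tissue composition, and the correlations are given as a description.

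Cnp, which hydrolyses cyclic nucleotides and belongs to non-compact myelin in glia, was at 38.4, 54.7, 38.9, 37.1 and 75 CPM in CFA-1 to CFA-5. It was at 29.0, 47.5, 31.5, 26.5 and 170 CPM in HFA-1 to HFA-5. The high values were those of the 3 libraries rich in B and T cell reads, CFA-2, CFA-5 and HFA-5, in which the B cell gene Cd79a was at 58.5, 150 and 433 CPM, against 0.426 to 0.886 CPM in the other 7. The log2 fold change of Cnp was 0.32 ± 0.52 with all libraries (adjusted p = 0.901, edgeR quasi-likelihood test), and it turned to −0.57 ± 0.26 without HFA-5 (unadjusted p = 0.0491, adjusted p = 0.192). The 5 genes most like Cnp were Plekha2 (Pearson r = 0.997), Cd86, Nsd3, Actb and Samhd1. All 7 tested B and T cell genes had r above 0.8 with Cnp, at a median of 0.90, and over the 7 libraries low in those reads the median was 0.078. Such an r was common, since the closest of these genes, Cd3d (r = 0.92), ranked 830 in likeness to Cnp, and Stmn2 (0.88) ranked 1387.

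**Figure D2:**
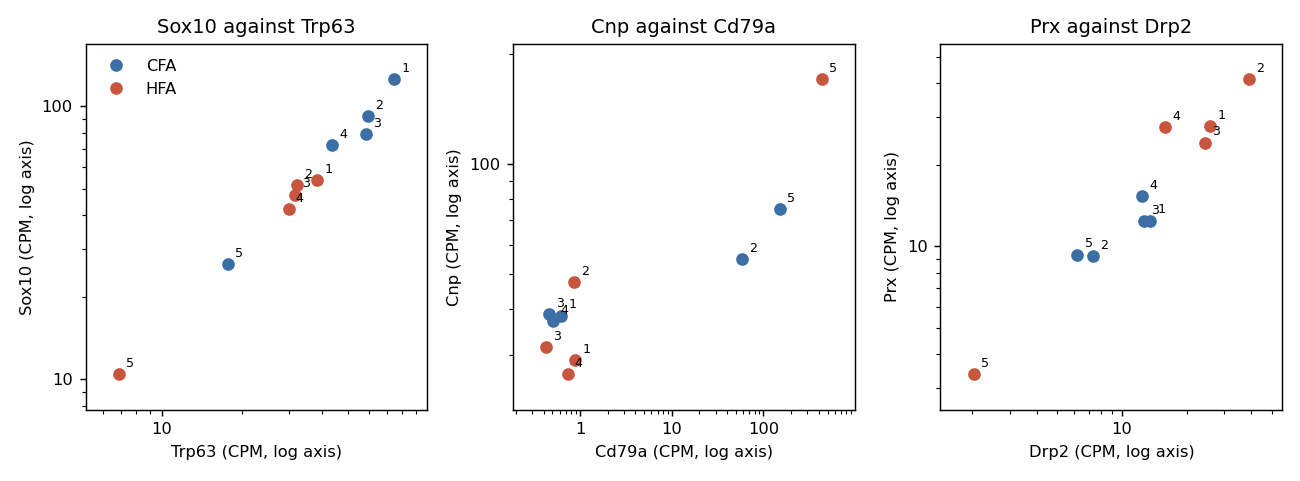
CPM of Sox10 against the basal epithelial gene Trp63, of Cnp against the B cell gene Cd79a and of Prx against its partner gene Drp2, each on log axes, with 1 point per library (CFA blue, HFA red, numbered). Sox10 keeps a ratio of 1.34 to 1.68 to Trp63, Cnp is above 50 CPM in the 3 libraries with Cd79a above 10 CPM and below it in the others, and Prx and Drp2 are both lowest in HFA-5 and both highest in HFA-2.

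The genes most like the other members were of several kinds. For Mbp they were Cdkn1a (Pearson r = 0.95), Mapre2, Ust, Kcna2 and Nfasc, of which Kcna2 encodes a potassium channel next to the node of Ranvier and Nfasc an adhesion molecule of the node. For Mag they were Fam214a (0.97), Flcn, Slc25a28, Acss1 and Pnpla7, and for Pmp22 Wdr35 (0.98), Itm2a, Ston2, Amotl1 and Ank3. For Prx they were Ktn1 (0.98), Klhl7, Sfrp5, Osr2 and Drp2, the last of these a partner of Prx in the sheath. Of the 16 other myelin genes tested, 9 had r above 0.8 with Prx, 6 with Pmp22, 4 with Sox10 and 0 with Mbp, Mag or Cnp. An r above 0.8 was not particular to these genes. Among all genes with a mean of at least 1 CPM, Plin1 (r = 0.82) ranked only 1243 in likeness to Prx. Fbln2 (0.83) ranked 1037 for Pmp22, and Tac1 (0.81) ranked 1146 for Sox10. Over the 7 libraries low in B and T cell reads the median r with these genes was 0.79 for Mbp, 0.61 for Mag, 0.71 for Prx, 0.35 for Pmp22, −0.59 for Sox10 and 0.16 for Cnp, against 0.20, 0.19, 0.82, 0.78, 0.56 and −0.72 over all 10. All 8 skeletal muscle genes also had r above 0.8 with Prx and with Pmp22, both kinds of gene being low in HFA-5. Over the 7 libraries low in B and T cell reads, the median r with the muscle genes was 0.78 for Mbp, 0.86 for Mag and 0.90 for Prx. It was 0.60 for Pmp22, −0.94 for Sox10 and −0.38 for Cnp.

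Between members, 15 pairs could be compared over the 10 libraries by permutation tests with 100000 resamples, with Benjamini-Hochberg adjustment over the pairs. Mbp and Mag had r = 0.80 (p = 0.00538, adjusted p = 0.0269) and rho = 0.87 (adjusted p = 0.0365). Both were separated by diet, which alone gives such a relation over the 10 libraries. Within a diet r was 0.47 in CFA and 0.12 in HFA, and with 5 libraries per diet this was not tested. Prx and Pmp22 had r = 0.85 (p = 0.00159, adjusted p = 0.0239) and rho = 0.67 (adjusted p = 0.151), and r was 0.69 without HFA-2 and HFA-5, the 2 libraries farthest from the median of Prx, 0.72 without HFA-5 alone (adjusted p = 0.129, permutation test) and 0.52 over the 7 libraries low in B and T cell reads. Prx and Cnp had r = −0.82 (p = 0.00447, adjusted p = 0.0269) and rho = −0.72 (adjusted p = 0.112), and r was −0.89 without the same libraries but −0.58 without HFA-5 alone (adjusted p = 0.249, permutation test) and −0.10 over those 7 libraries. Pmp22 and Cnp had r = −0.88 (p = 0.00837, adjusted p = 0.0314) and rho = −0.48 (adjusted p = 0.413), and r was −0.42 without CFA-2 and HFA-5 and −0.53 without HFA-5 alone (adjusted p = 0.262, permutation test). The 3 pairs among Prx, Pmp22 and Cnp did not pass without HFA-5, and without CFA-2 their r of 0.86, −0.82 and −0.88 did not pass either. Sox10 passed with no other member.

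The wider set of myelin and myelinating Schwann cell genes holds proteins, junctions and lipid enzymes of the sheath. Of 17 listed genes 16 were tested, of which HFA was higher for 11 and lower for 5, and the median log2 fold change was 0.53 against 0.064 over all genes. In the same fit all 8 muscle genes were higher in HFA (median 0.67) and all 7 adipocyte genes (median 0.23), and the part of these in the myelin genes was not tested beyond the covariate fits given further on. At an unadjusted p below 0.05, 2 were higher and 1 lower, against 3.87% and 3.49% of all genes. Cldn19, a claudin of Schwann cell autotypic junctions, was at 0.768 to 1.73 CPM in CFA, at 2.88 to 7.68 CPM in HFA-1 to HFA-4 and at 0.255 CPM in HFA-5, a log2 fold change of 1.64 ± 0.64 (unadjusted p = 0.0265, edgeR). Fa2h, which hydroxylates fatty acids of myelin lipids, had 1.39 ± 0.53. Mpzl1 was the gene lower in HFA, at −0.85 ± 0.36, and it is made well beyond glia. With epithelial genes as a covariate it was at −0.27 ± 0.13. Cd9, the most abundant gene of the list and a tetraspanin of many cells, was at −0.48 ± 0.26 (unadjusted p = 0.0898), and Itgb4, an integrin of Schwann cells and epithelium, was at −0.15 ± 0.44.

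The regulators of the myelin program were listed apart. Of 15 genes of Schwann cell transcription and neuregulin signalling, 10 were tested, of which HFA was higher for 3 and lower for 7. The list had a median log2 fold change of −0.15, and at an unadjusted p below 0.05 there were 0 of them in edgeR. Egr2, the partner of Sox10 on myelin genes, had a log2 fold change of −0.76 ± 0.42 (unadjusted p = 0.0983) and one of −0.35 without CFA-3 (unadjusted p = 0.334), the library in which it was at 29.5 CPM. The remaining CFA values were 8.17 to 13.5 CPM. Erbb3, the neuregulin receptor, had a log2 fold change of −0.25 ± 0.46 (unadjusted p = 0.598). It was lowest in CFA-5 (25.6 CPM) and HFA-5 (22.98 CPM), where the epithelial sum was also lowest (665 and 413 CPM). The part of epithelium in the values of Erbb3 was not tested. Qk, an RNA-binding protein that acts on Mbp and Mag transcripts in glia, was at 0.10 ± 0.14, and Tead1 was at 0.31 ± 0.39. Nrg1 was not tested, with at most 15 reads in a library.

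Genes of non-myelinating, immature or repair Schwann cells included 1 gene without overlap between the diets. S100b, a calcium-binding protein of Schwann cells that fat cells also make, was at 1.85 to 3.90 CPM in CFA and 4.43 to 9.22 CPM in HFA, HFA-5 included at 4.46 CPM, against 0.75% of all genes with such a separation. Its log2 fold change was 1.24 ± 0.29, with an unadjusted p of 0.00152 and an adjusted p of 0.577 (edgeR), against an adjusted p of 0.0249 by DESeq2 and 0.0379 by limma voom with quality weights. The adjusted p was 0.0839 by the likelihood ratio test, 0.69 by limma voom and 0.0573 in the 7 libraries low in B and T cell reads (edgeR). Of 16 listed genes 12 were tested, of which HFA was higher for 8 and lower for 4, and the median log2 fold change was 0.54. Cdh2, Col28a1 and Kcna1 also had an unadjusted p below 0.05, at log2 fold changes of 0.90 ± 0.28, 0.65 ± 0.28 and 1.16 ± 0.48. With S100b these were 4 of the 12, against 3.87% of all genes. Without HFA-2, Col28a1 was at 0.36 (unadjusted p = 0.118) and Kcna1 at 0.72 (unadjusted p = 0.126), and without HFA-5 Cdh2 was at 0.61 ± 0.23. Scn7a, a sodium channel and the most abundant gene of the list, was at −0.21 ± 0.34, and Matn2 was at −0.51 ± 0.33 (unadjusted p = 0.153).

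**Figure D3:**
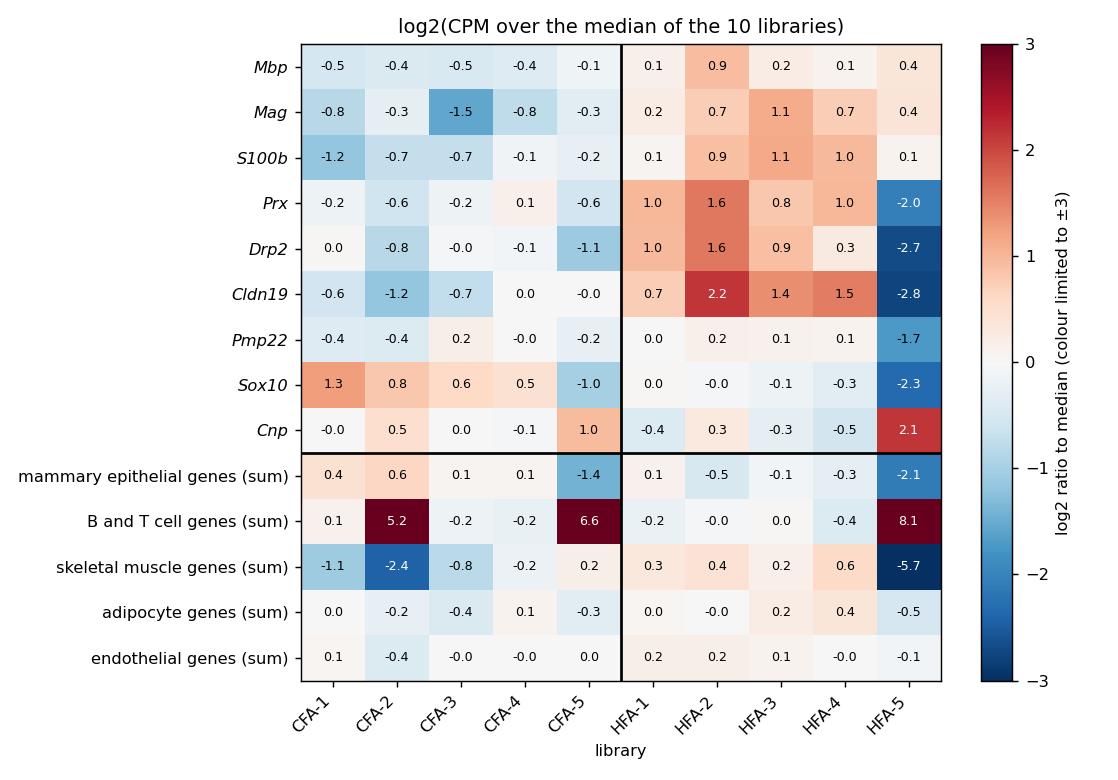
Rows are members, other Schwann cell genes and summed marker lists, columns are the 10 libraries, and each cell is the log2 ratio of the CPM to the median of the 10 libraries (colours limited to ±3). Mbp, Mag and S100b are above the median in all 5 HFA libraries, Prx, Drp2 and Cldn19 in HFA-1 to HFA-4 with HFA-5 below it, and the epithelial, lymphoid and muscle sums show how HFA-5 differs.

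Transcripts of axons and neurons were also listed, since myelin forms around axons. Of 12 axon and neuron genes 5 were tested, with 3 higher and 2 lower in HFA. The other 7 were not tested, with 3 (Nefl) to 172 (Nefh) reads in all, both of these neurofilament genes. Calca, which encodes the peptide CGRP of sensory neurons, was at 116, 153, 98.8, 11.4 and 50.2 CPM in CFA-1 to CFA-5. In HFA-1 to HFA-5 it was at 4.32, 3.02, 8.80, 2.56 and 1.27 CPM. Every HFA library was below every CFA library, which was so for 0.243% of all genes, and the log2 fold change was −4.46 ± 0.73 (unadjusted p = 9.63e-05, adjusted p = 0.376, edgeR quasi-likelihood test). Calca passed by DESeq2 (adjusted p = 3.99e-08), by the likelihood ratio test (8.65e-06), by limma voom with quality weights (0.0426) and in the 7 libraries low in B and T cell reads (0.0428). It did not pass by limma voom (0.69), the robust quasi-likelihood test (0.392) or with any 1 library left out (0.0536 to 0.999). It also did not pass with B and T cell (0.11), muscle (0.136) or epithelial genes (0.215) as a covariate. Which cells gave the Calca reads was not tested. Tac1, the precursor of substance P in the same kind of neuron, was at 0.672 to 4.33 CPM in CFA and 0.426 to 1.55 CPM in HFA, at −1.39 ± 0.51 (unadjusted p = 0.0202), and at −0.64 ± 0.42 with epithelial genes as a covariate (unadjusted p = 0.155). Stmn2 was at 0.42 ± 0.38.

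Leaving out the 3 libraries rich in B and T cell reads, a choice made after the data had been seen, left 3 CFA and 4 HFA libraries. In these, 469 of 15759 genes passed an adjusted p of 0.05, or 2.98%, and 3 of the 6 tested members did. Mag had a log2 fold change of 1.72 ± 0.34 (adjusted p = 0.0447), Prx one of 1.17 ± 0.20 (adjusted p = 0.0428) and Sox10 one of −0.92 ± 0.19 (adjusted p = 0.0469), all from edgeR. Mbp, at 0.85 ± 0.20, had an adjusted p of 0.0585, and Pmp22, at 0.17 ± 0.14, and Cnp, at −0.18 ± 0.19, had 0.528 and 0.628. Over all alternatives the adjusted p ran from 0.0365 to 0.999 for Prx and from 0.0469 to 0.999 for Sox10. Cldn19 passed as well, at 1.94 ± 0.38 (adjusted p = 0.0428), and Drp2, at 1.03 ± 0.27, had an adjusted p of 0.0716. Muscle and epithelium moved with the diet in the same 7 libraries. All 8 muscle genes were higher in HFA (median 1.00 on the log2 scale), and 9 of the 12 epithelial genes were lower (median −0.81). With muscle genes as a covariate over all 10 libraries, the log2 fold change of Prx was 0.69 ± 0.24 and that of Cldn19 1.18 ± 0.29. Those of Mag and Mbp were 1.35 ± 0.28 and 0.77 ± 0.16. Over these 10 libraries r with Myh4 was 0.046 for Mag and 0.012 for Mbp, against 0.78 and 0.77 over the 7. The covariate could therefore shift Mag and Mbp little in that fit, and the part of muscle in them was not tested.

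**Figure D4:**
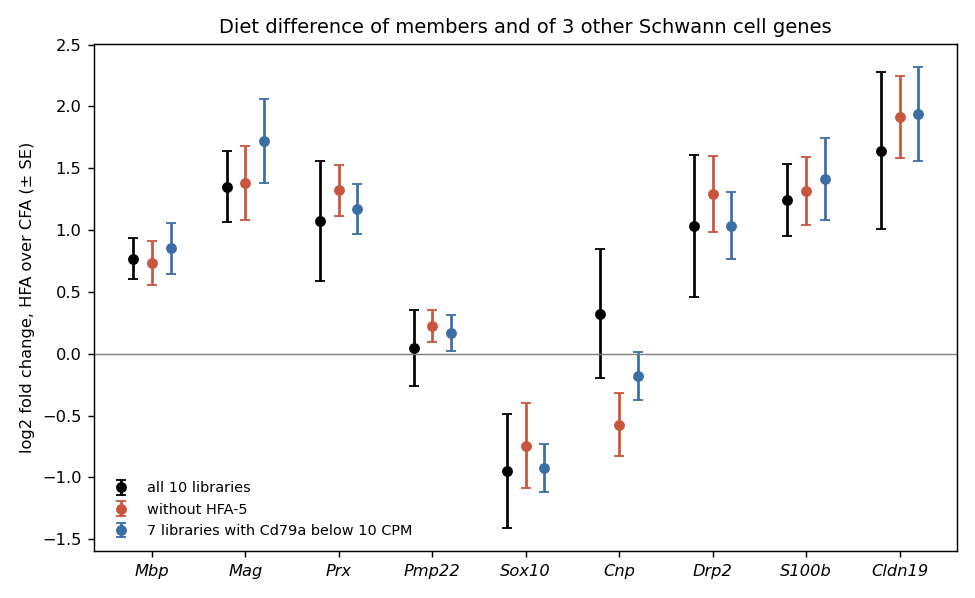
Log2 fold changes of HFA over CFA (± SE, edgeR) for 6 members and for Drp2, S100b and Cldn19, fitted on all 10 libraries (black), without HFA-5 (red) and on the 7 libraries with Cd79a below 10 CPM (blue). Mbp and Mag stay near 0.77 and 1.35 in the first 2 fits, Prx has a smaller error once HFA-5 is left out, and Cnp turns from 0.32 to −0.57.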

How the data were processed

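The deposited libraries are 5 per group, left after the authors had removed 1 sequenced sample for poor reverse reads and 1 as an outlier, and per the labels the authors aligned the reads with TopHat 2.0.14 and Bowtie 2.2.5 to GRCm38 and counted them per Ensembl gene with HTSeq 0.6.1. The strand setting of HTSeq is not given in the sources used here. The deposited values are whole-number counts without normalization, 1 list per library. Reads with more than 1 alignment (28.8% to 33.9%), on no gene (3.43% to 5.47%) or on several genes (3.52% to 4.29%) stayed out of library sizes and tests. Symbols were found for 46488 genes in GENCODE M21.

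HFA was compared with CFA in R 4.3.3 with edgeR 4.0.16 (filterByExpr, TMM, quasi-likelihood test, two-sided, Benjamini-Hochberg over 15610 genes), with no covariate, since cage, a term of the study's model, is not in the labels. CPM values are after TMM scaling. Standard errors come from the fold change and the F statistic. Correlations used log2 CPM with a prior count of 2, without Pmp2, whose 2 reads did not pass the filter. Alternatives were other scalings, filters, edgeR's likelihood ratio test, DESeq2 1.42.0, limma voom 3.58.1, terms from the title digits, marker covariates and each library left out. The members and lists were chosen with earlier results of these data known. Named besides the members are up to 2 of the most abundant genes of the lists described, Schwann cell and neuron genes with an unadjusted p below 0.05, and the 5 genes most like each member. Egr2, Erbb3, Nrg1, Nefl, Nefh, Mog, Mobp, Opalin and the B cell gene Cd79a are named for their role. Further genes of the myelin list are not reported here, and its counts leave them out.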

Additional observations from a re-analysis of the deposited data

Results flagged for a closer look

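In 14 genes (the 6 members tested and 8 other Schwann cell genes), each diet group of 5 was searched for a library far from the others by Dixon's test on log2 CPM. The 28 groups share the same 10 libraries and are not independent. The chance rate of about 1 in 20 for a single group therefore gives no count to compare. Of these groups 6 held such a library. In 5 of them it was the lowest library of HFA and it was HFA-5, with Prx at 3.37 CPM, Pmp22 at 53.2 CPM, Sox10 at 10.4 CPM, Erbb3 at 22.98 CPM and Scn7a at 50.4 CPM. The remaining one was Egr2 in HFA-4, the lowest of HFA at 3.20 CPM. HFA-5 was also the library with the most B and T cell reads and the least muscle and epithelial reads, and the part of these in the 5 values was not tested. Neither Mbp nor Mag had such a library in either group.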

How the results depend on the processing

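The log2 fold changes of Mbp, Mag, Prx and Sox10 kept their sign under all 25 alternatives, at 0.58 to 1.35 for Prx and −1.28 to −0.24 for Sox10. That of Pmp22 turned to −0.0064 under upper-quartile scaling, −0.012 without a filter, −0.036 by limma voom, −0.0063 with a term for the second title digit, −0.092 with a block by the title digits, −0.21 with B and T cell genes and −0.12 with muscle genes as a covariate, and ran from −0.056 without CFA-2 to 0.22 without HFA-5. That of Cnp turned to −0.0016 by limma voom, −0.31 with its quality weights, −0.18 in the 7 libraries low in B and T cell reads, −0.085 with muscle and −0.66 with epithelial genes as a covariate, and ran from −0.57 without HFA-5 to 0.53 without CFA-5. The cause was not tested.

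Members with an unadjusted p below 0.05 numbered 2 with all libraries and 4 by the likelihood ratio test, DESeq2, limma voom with quality weights, in the 7 libraries and with muscle genes as a covariate, and 2 to 4 with 1 library left out, 4 being without HFA-5. Past an adjusted p of 0.05 were 0 members, against 1 by the likelihood ratio test, 2 by DESeq2, 3 with quality weights and 3 in the 7 libraries, and 0 with any library left out. Over all genes the calls were 0, against 33 by the likelihood ratio test, 60 by DESeq2, 1037 with quality weights, 469 in the 7 libraries, 2 with B and T cell and 1 with epithelial genes as a covariate, and 0 to 6 with 1 library left out (6 without HFA-5). The 1149 genes at an unadjusted p below 0.05 became 4702 with quality weights, 3687 in the 7 libraries, 2282, 2594 and 1727 with B and T cell, muscle and epithelial genes as a covariate, and 553 (without CFA-3) to 4059 (without HFA-5). In the Schwann cell and neuron lists 9 genes had an unadjusted p below 0.05, against 4 by limma voom, 18 with quality weights, 21 in the 7 libraries, 14 with epithelial genes as a covariate, and 3 (without CFA-1) to 21 (without HFA-5). Of 15 pairs of members 4 passed, against 1 in the 7 libraries (Mbp and Prx, none of the 4) and 0 (without CFA-2) to 5 (without HFA-2).

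Mag rests on 9 to 35 reads per library and Pmp2 on 2 reads in all, which limits what can be said of either. Replicate numbers are names only, and the labels do not say what the title digits stand for.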
